A study of Homo sapiens with 4 samples.

Results

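The genes described here encode the machinery that licenses replication origins and copies DNA. They are 41 named genes, taken as the probe sets that carry 1 gene symbol and that symbol only, out of 18132 genes measured in all. All 41 were found, through 110 probe sets, and each gene was read from the probe set that was brightest on average over the 4 arrays. The cells were U87MG, an established human glioma cell line, transfected with the miR-490 overexpression plasmid PC-490 or with the control plasmid PCDNA. RNA was taken 48 hours after transfection and hybridised to PrimeView arrays, 2 for each group, each from 100 ng of total RNA. Both groups carried a transfected plasmid, and the sources used here do not give the share of cells that took it up. Whether the 2 arrays of a group came from separate cultures is not in the labels, and p-values therefore measure the spread between these arrays, which may be technical. In RNA from whole cultures, fewer cells in S phase and less of a transcript per cell cannot be told apart.

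The values are log2 expression, and a fold change is the mean of the miR-490 arrays minus the mean of the control arrays on that scale. The array medians lay between 5.15 and 5.17. Of 12 glioma and glial markers, 5 were above the median gene level of 5.84, among them VIM, at 13.90 to 13.92, and SOX9, at 8.37 to 8.63. GFAP lay just under that level, at 5.56 to 5.81, while AQP4 (2.64 to 2.78) and OLIG2 (3.59 to 3.75) were dim. Of 5 leukocyte markers measured, 4 were under the median gene level, the pan-leukocyte PTPRC at 2.43 to 2.62, and 1 was above it, CD68, a lysosomal protein best known from macrophages, at 10.16 to 10.25. The cells carried messages of division, with MKI67 between 7.39 and 7.73.

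A replication origin is marked by the origin recognition complex, ORC. In G1 phase ORC, with CDC6 and CDT1, loads rings of MCM2 to MCM7 onto DNA, which is called licensing. In S phase the ring is joined by CDC45 and GINS to form the active helicase, and polymerases, held on DNA by the PCNA clamp that RFC loads, copy the strands. Many of these genes are transcribed by E2F factors at the entry into S phase, once cyclin E with its kinase has helped to inactivate the RB protein, and dividing tumour cells, glioma cells included, need them in each cycle.

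The plasmid encodes the microRNA miR-490, whose hairpin gives 2 mature arms. They are shown because the groups differ by the plasmid that encodes them. RefSeq (GRCh38.p14) places the 5p arm at chr7:136903205-136903224 and the 3p arm at chr7:136903242-136903263, both on the plus strand. The capitals mark the seed, bases 2 to 8, the part that chiefly selects target messages.
hsa-miR-490-5p: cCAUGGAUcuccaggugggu
hsa-miR-490-3p: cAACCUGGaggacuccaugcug
The arms share no seed. Target sites in the replication genes were not analysed here, and the arrays give no check of the microRNA itself.

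The promoters of many of the genes share letters that the choice of members did not use directly. Many of these genes were known to be transcribed by E2F factors, so the share below is a description and not an independent finding. RefSeq promoters, 250 bases before to 50 after the start site, were found for 37 of the 41 genes. The E2F letters TTTCCCGC, TTTGGCGC, TTTCGCGC or TTTGCCGC, searched on both strands and with overlaps allowed, were in 17 of these 37 (45.9%), against 3.33% of all 27305 promoters of that length. Those 27305 promoters were not limited to the genes measured here. The matches among the 37 were in all 3 GINS and all 4 MCM2 to MCM7 promoters found. They were also in both licensing factors, and in 1 of the 6 ORC promoters, that of ORC3. The 8 windows of 28 bases below, with 1 match in capitals, are shown because they come from genes on both sides of the comparison. CDC6, E2F1, MCM6, GINS1 and PCNA had lower means with miR-490, and POLA1, POLE and LIG1 higher ones. The E2F1 promoter holds 2 matches and that of MCM6 holds 4, of which 1 each is marked. The MCM6 window also takes in a further match, on the opposite strand, that overlaps the marked one.
CDC6: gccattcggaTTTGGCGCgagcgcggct
E2F1: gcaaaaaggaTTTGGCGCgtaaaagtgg
MCM6: attggtcaggTTTGGCGCgaaatctcca
GINS1: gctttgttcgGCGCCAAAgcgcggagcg
PCNA: agcgtcagggGCGGGAAAaggcgtgcgt
POLA1: tcatcacaggGCGCCAAAcgcgcgtccg
POLE: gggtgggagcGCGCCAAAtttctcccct
LIG1: cttcacccctTTTCCCGCcctcctccca
Each is read 5′ to 3′ on its gene's strand. In order they lie at chr17:40287876-40287903 (plus), chr20:33686388-33686415 (minus), chr2:135876516-135876543 (minus), chr20:25407668-25407695 (plus), chr20:5126664-5126691 (minus), chrX:24693771-24693798 (plus), chr12:132687343-132687370 (minus) and chr19:48170441-48170468 (minus). A match is a stretch of letters and not a measured binding site. Of the 17 genes with a match 11 had lower means with miR-490, 4 higher and 2 equal, with a median log2 fold change of -0.025. Of the 20 without one 13 were lower, 6 higher and 1 equal, with a median of -0.038.

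The comparison asks whether messages of the replication machinery differed between cells given the miR-490 plasmid and cells given the control plasmid. Differences were small throughout. The lowest fold was 0.838, for ORC1, a subunit of the origin recognition complex, and the highest 1.15, for POLE, the catalytic subunit of the leading-strand polymerase. None of the 41 genes passed the threshold over all genes (limma, Benjamini-Hochberg adjusted p under 0.05; smallest adjusted p 0.786), and neither did any other gene (0.0% called). At an unadjusted p under 0.05 there were 2 of the 41, ORC1 lower and POLE higher (4.88%), against 6.19% of all genes, of which 2.88% were lower and 3.31% higher. The 95% interval of every one of the 41 fold changes lay between -0.448 and 0.387 on the log2 scale, and 32 of the fold changes were within 0.1 of 0.

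More of the genes leaned down than up. Of the 41, 27 had a lower mean with miR-490 (65.9%), 11 a higher one and 3 the same, with a median log2 fold change of -0.04. Over all genes 47.3% had a lower mean and the median was 0.005, and among genes above the median level, where 35 of the 41 lie, the share was 50.0%. Both miR-490 arrays lay below both control arrays in 9 of the 41 (22.0%), where 16.1% of all genes did, and above both in 6 (14.6%), where 16.5% did. For any 1 gene, an exact two-sided permutation test of 2 against 2 arrays cannot give a p below 0.333.

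Control array 1 moved with this lean. It was the highest of the 4 arrays in 20 of the 41 genes (48.8%), against 20.7% of all genes and 24.5% of those above the median level. Without it, 22 of the 41 had lower means (53.7%), against 53.6% of all genes, and the median was -0.01, equal to the median of all genes. Without control array 2, 26 were lower (63.4%) against 43.2% of all genes, with a median of -0.06 against 0.02. Without miR-490 array 1, 28 were lower (68.3%) against 48.8% of all genes, with a median of -0.025 against 0.0. Without miR-490 array 2, 25 were lower (61.0%) against 47.6% of all genes, with a median of -0.03 against 0.005.

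**Figure D1:**
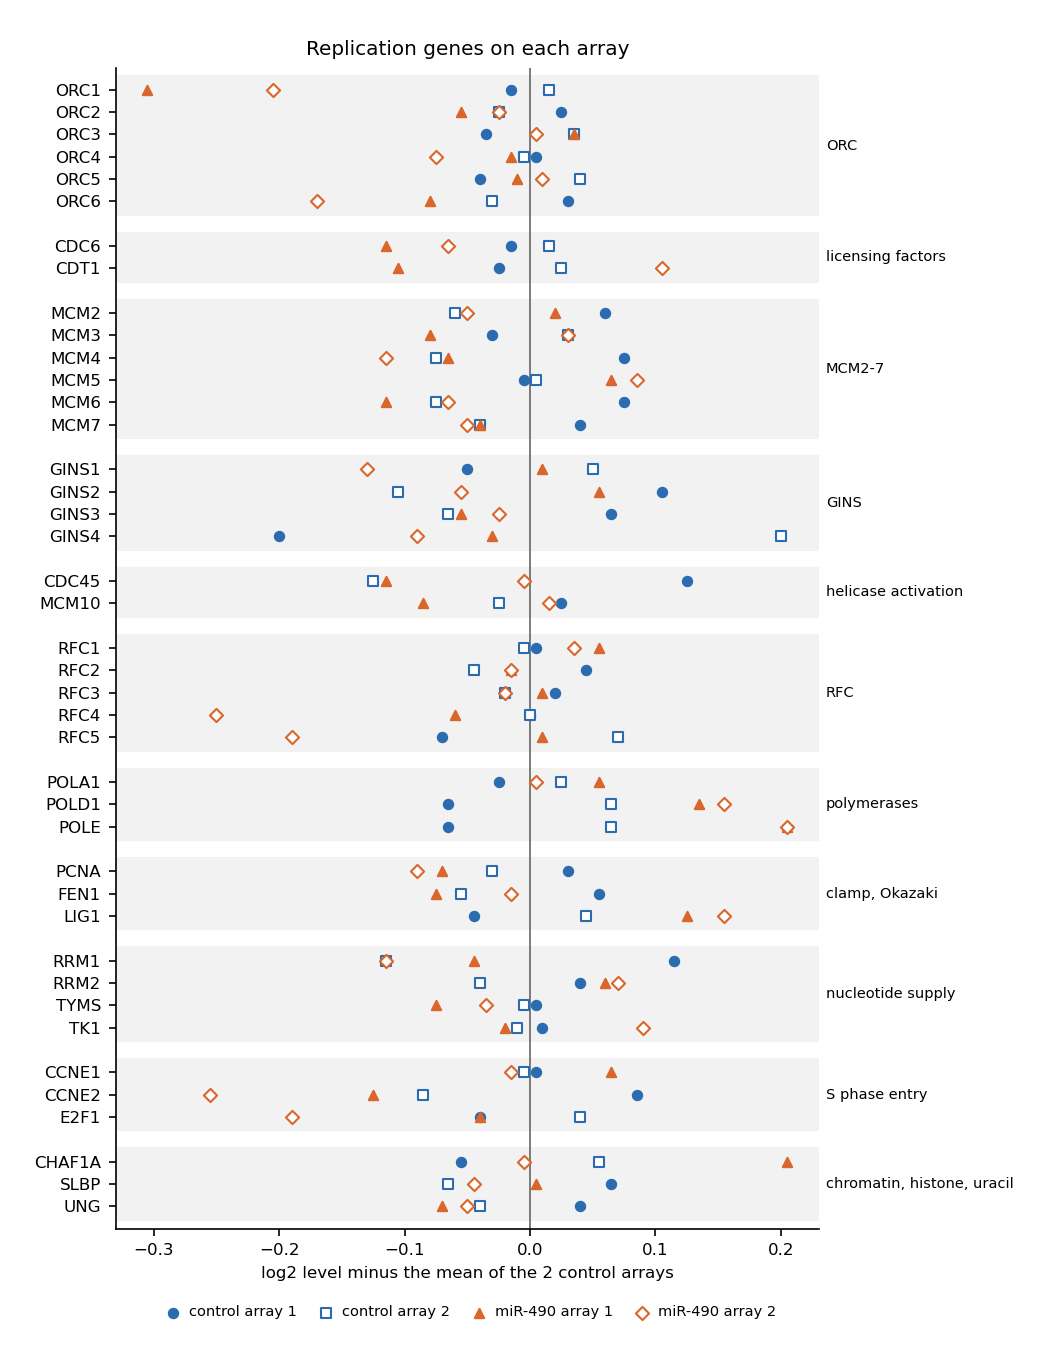
Each row is a replication gene, grouped by complex or role, and each symbol 1 array; the x axis is the log2 level minus the mean of the 2 control arrays. Symbols of arrays with equal values lie on each other, as for POLE, at 7.43 on both miR-490 arrays; control array 1 is the rightmost symbol in 20 of the 41 rows.

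The 6 subunits of ORC, which marks origins through the cell cycle, had a median log2 fold change of -0.0425, with 4 lower, 1 higher and 1 equal. ORC1, the subunit whose level rises and falls with the cycle, was at 5.17 and 5.20 on the control arrays and at 4.88 and 4.98 on the miR-490 arrays. Both miR-490 arrays lay under both controls, by more than the replicates differed. Its log2 fold change was -0.255 (SE 0.0633, unadjusted p 0.0127, adjusted p 0.786, limma). ORC1 has 1 probe set here, of the kind marked x, some of whose probes may match other sequences, and its level was under the median of the genes.

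ORC6, the smallest subunit, was at 7.01 and 6.95 on the control arrays and at 6.90 and 6.81 on the miR-490 arrays. The groups did not overlap, but the nearest arrays were 0.05 apart, with a fold change of -0.125 (SE 0.064, adjusted p 0.811, limma). ORC4 read 9.05 and 9.04 against 9.03 and 8.97, also without overlap, at a fold change of -0.045. The other subunits of the core gave overlapping groups: ORC2 was at -0.04, ORC3 at 0.02 and ORC5 at 0.0, while the other probe sets of ORC5 gave -0.145 and -0.13. Without control array 1 all 6 subunits were lower, with a median of -0.04, and without control array 2 the median was -0.0575 with 4 lower.

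Of the licensing factors, CDC6, the ATPase that joins ORC to load the MCM ring, was at 7.41 and 7.44 on the control arrays. On the miR-490 arrays it was at 7.31 and 7.36, under both controls, with a fold change of -0.09 (SE 0.0562, adjusted p 0.833, limma). Its other probe set gave 0.0, with values from 6.99 to 7.12 in both groups. CDT1, which brings the MCM ring to ORC and is destroyed in S phase, was at 6.35 and 6.40 in controls and at 6.27 and 6.48 with miR-490. The miR-490 arrays enclosed the controls, and the means were equal.

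The 6 genes of the MCM ring, the motor of the helicase, had a median of -0.035, with 5 lower and 1 higher. For MCM4, the values were 7.89 and 7.74 in controls and 7.75 and 7.70 with miR-490, a fold change of -0.09. MCM6 gave the same fold change, from 8.82 and 8.67 to 8.63 and 8.68. In both genes control array 1 stood alone above the 3 others. MCM7 repeated this on a smaller scale, with 9.60 on control array 1 and 9.52, 9.52 and 9.51 on the rest (fold change -0.045). MCM2 (-0.015) and MCM3 (-0.025) overlapped between the groups. A further probe set of MCM2 gave -0.1 and a further one of MCM3 -0.16, both without overlap. Their remaining sets overlapped, at -0.03 to -0.015. Other probe sets of MCM4 gave -0.075 to 0.13, those of MCM6 -0.06 and -0.05, and those of MCM7 -0.03 to 0.07, all overlapping. Over the mean of probe sets MCM4 and MCM7 were both at 0.004.

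MCM5 was the subunit with a higher mean. It was at 5.52 and 5.53 in controls and at 5.59 and 5.61 with miR-490, a fold change of 0.075 (SE 0.0532, adjusted p 0.851, limma), with both miR-490 arrays above both controls. The median difference of control array 1 from control array 2 over the 6 genes was 0.1, larger than the group difference. Of the 21 probe sets of the ring 19 read higher on control array 1 than on control array 2. Of all genes, on 1 probe set each, 38.8% did. Without control array 1 the median of the ring was -0.01 and 4 of 6 were lower, and without control array 2 it was -0.08, again with 4 of 6.

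GINS, the 4-subunit complex that joins the ring to form the active helicase, had a median of -0.05, with 3 lower and 1 equal. GINS1 was at 6.89 and 6.99 in controls and at 6.95 and 6.81 with miR-490, and GINS3 at 5.83 and 5.70 against 5.71 and 5.74. In both, the groups overlapped. GINS2 had equal means, and GINS4, at -0.06, was dim and had the widest interval of all 41 genes (-0.448 to 0.328). Other probe sets of GINS1 gave 0.12 and 0.26 and those of GINS4 -0.42 to 0.355, all from dim sets. The median of GINS was -0.0425 without control array 1 and -0.0575 without control array 2.

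CDC45, the third part of the helicase, was at 5.93 and 5.68 in controls and at 5.69 and 5.80 with miR-490 (fold change -0.06). MCM10, which helps the helicase start and binds polymerase alpha, was at 6.54 and 6.49 against 6.43 and 6.53 (fold change -0.035). In both genes control array 1 was the highest array and the groups overlapped. Every probe set of these 2 genes, 6 in all, had a lower mean with miR-490, from -0.255 for the dimmest of CDC45 to -0.035. The median of the pair was 0.0275 without control array 1 and -0.1225 without control array 2, so its direction changed with that array, as it did without miR-490 array 1 (0.005).

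The 3 catalytic polymerase subunits were the only group here with no lower mean, at a median of 0.145. POLE, of the leading-strand polymerase epsilon, was at 7.16 and 7.29 in controls and at 7.43 on both miR-490 arrays. The miR-490 arrays stood above both controls, by 0.14 over the nearer one, which was close to the 0.13 between the controls. The fold change was 0.205 (SE 0.0684, unadjusted p 0.0349, adjusted p 0.786, limma). POLD1, of polymerase delta, which copies the lagging strand and proofreads, was at 6.90 and 7.03 against 7.10 and 7.12, again without overlap (fold change 0.145, SE 0.0687, adjusted p 0.786).

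POLA1, of the polymerase that makes primers with primase, was at 7.07 and 7.12 in controls and at 7.15 and 7.10 with miR-490, and the groups overlapped (0.03). Each of these genes has 1 probe set here, and that of POLE is of the kind marked s, whose probes can match more than 1 transcript family. Control array 1 was the lowest array in all 3. Without it the median was 0.08, and without control array 2 it was 0.21, with all 3 genes higher in both cases.

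PCNA, the ring that tethers polymerases to DNA, was at 9.85 and 9.79 in controls and at 9.75 and 9.73 with miR-490. The groups did not overlap, at a fold change of -0.08 (SE 0.0568, adjusted p 0.851, limma), and a dim probe set of the gene gave -0.305. LIG1, the ligase that seals Okazaki fragments, went the other way, with 6.53 and 6.62 in controls and 6.70 and 6.73 with miR-490. Both miR-490 arrays were above both controls (fold change 0.14, SE 0.0616, adjusted p 0.786), while the 5 other probe sets of LIG1 gave -0.03 to 0.115. FEN1, the nuclease that trims the fragments before LIG1 acts, was at -0.045 with overlapping groups. The median of these 3 genes was 0.01 without control array 1 and -0.1 without control array 2.

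RFC, the 5-subunit machine that opens PCNA and loads it, had a median of -0.015, with 4 lower and 1 higher. RFC4 was at 8.03 on both control arrays and at 7.97 and 7.78 on the miR-490 arrays. The groups did not overlap, but the miR-490 arrays were further from each other than the nearer of them was from the controls (fold change -0.155, SE 0.0827, adjusted p 0.811, limma). RFC1, the large subunit, was at 7.96 and 7.95 against 8.01 and 7.99, higher on both miR-490 arrays by a fold change of 0.045. RFC5 was at 7.47 and 7.61 against 7.55 and 7.35 (-0.09), and RFC2 (-0.015) and RFC3 (-0.005) overlapped between the groups. Other probe sets of RFC5 gave -0.175, without overlap, and -0.02 and 0.055, with overlap. Without control array 1 the median was 0.015, and without control array 2 it was -0.025.

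Genes of nucleotide supply were split, 2 lower and 2 higher, with a median of -0.01. TYMS, which makes thymidylate, was at 10.45 and 10.44 in controls and at 10.37 and 10.41 with miR-490, under both controls (fold change -0.055). RRM2, the cell-cycle-regulated subunit of ribonucleotide reductase, was at 8.46 and 8.38 against 8.48 and 8.49, above both controls (0.065). Its partner RRM1 was at -0.08, with 8.45 on control array 1 and 8.22 to 8.29 on the others, and TK1, the salvage kinase for thymidine, at 0.035. The median was 0.04 without control array 1 and -0.0175 without control array 2.

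Of the genes that set S phase entry, CCNE2, the second cyclin E, was at 5.57 and 5.40 in controls and at 5.36 and 5.23 with miR-490. The groups did not overlap, but the nearest arrays were closer than the controls were to each other (fold change -0.19, SE 0.089, adjusted p 0.786, limma). The other probe set of CCNE2 read 5.39 and 5.12 against 4.91 and 4.98, a fold change of -0.31 without overlap. CCNE1, at 7.26 and 7.25 against 7.32 and 7.24, overlapped (0.025), and a dim probe set of it gave -0.195.

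E2F1, the transcription factor that drives many of these genes, was at 6.54 and 6.62 in controls and at 6.54 and 6.39 with miR-490. One array of each group had the same value, so the groups touched (fold change -0.115, SE 0.0776, adjusted p 0.845, limma). Without control array 1 the median of CCNE1, CCNE2 and E2F1 was -0.105, and without control array 2 it was -0.075.

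Of the rest, CHAF1A, the large subunit of the histone chaperone CAF-1, was at 7.19 and 7.30 in controls and at 7.45 and 7.24 with miR-490 (0.1, overlapping). SLBP, which binds the stem-loop of histone messages, was at 9.41 and 9.28 against 9.35 and 9.30 (-0.02, overlapping). UNG, which removes uracil from DNA, was at 8.52 and 8.44 against 8.41 and 8.43, lower on both miR-490 arrays by 0.01 or more (-0.06). Their median was 0.045 without control array 1 and -0.085 without control array 2.

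**Figure D2:**
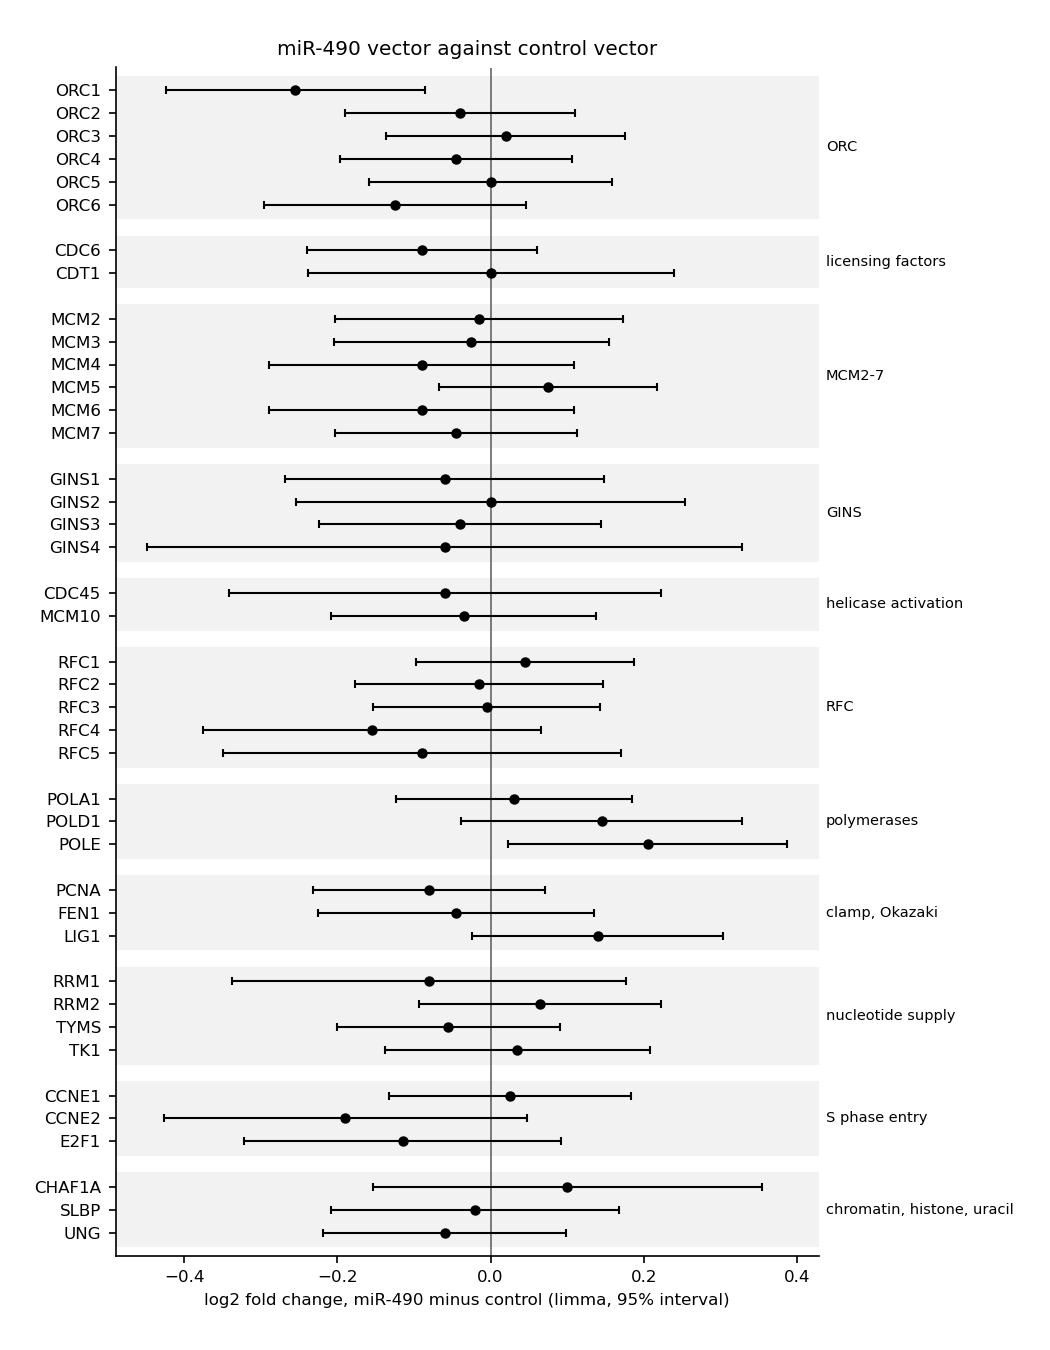
Points are log2 fold changes (miR-490 minus control, 2 arrays each) of the 41 genes by complex, and bars are limma's 95% intervals. The bars of ORC1 and POLE leave out 0, and no bar reaches beyond -0.448 or 0.387.

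**Figure D3:**
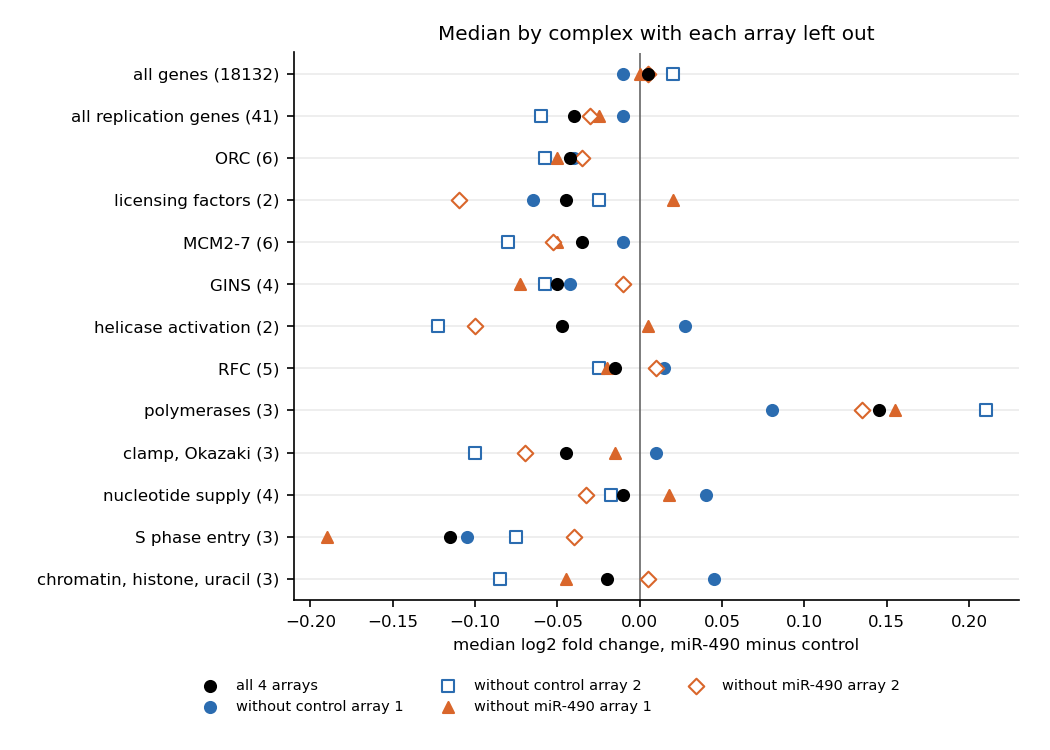
Each row gives the median log2 fold change of all genes, of the 41 replication genes or of 1 complex or role, with the number of genes in brackets, from all 4 arrays and with each array left out. The polymerases stay above 0 (0.08 to 0.21), and ORC, the MCM ring, GINS and S phase entry stay below 0. In POLE and POLD1 both miR-490 arrays lie above both controls, so the polymerase median cannot fall below 0 here. When control array 1 is left out, 5 of the 11 rows of complexes change sign.

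The further probe sets of the same genes gave a mixed picture. Of the 110 probe sets, 68 had a lower mean with miR-490 (61.8%), 38 a higher one and 4 the same, against 47.9% lower among all probe sets with 1 symbol. Of the 69 not used above, 45 moved the same way as the chosen set and 19 the other way, and 5 could not be compared because one of the values was 0. Control array 1 was above control array 2 in 69 of the 110. Over all genes, read from 1 probe set each, this held for 38.8%. Sets with the other sign lay in ORC3, ORC4, MCM4, MCM7, GINS1, GINS4, RFC3, RFC5, LIG1, RRM2, CCNE1 and SLBP. Probe sets of 1 gene measure the same RNA extracts and are not replicates.

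**Figure D4:**
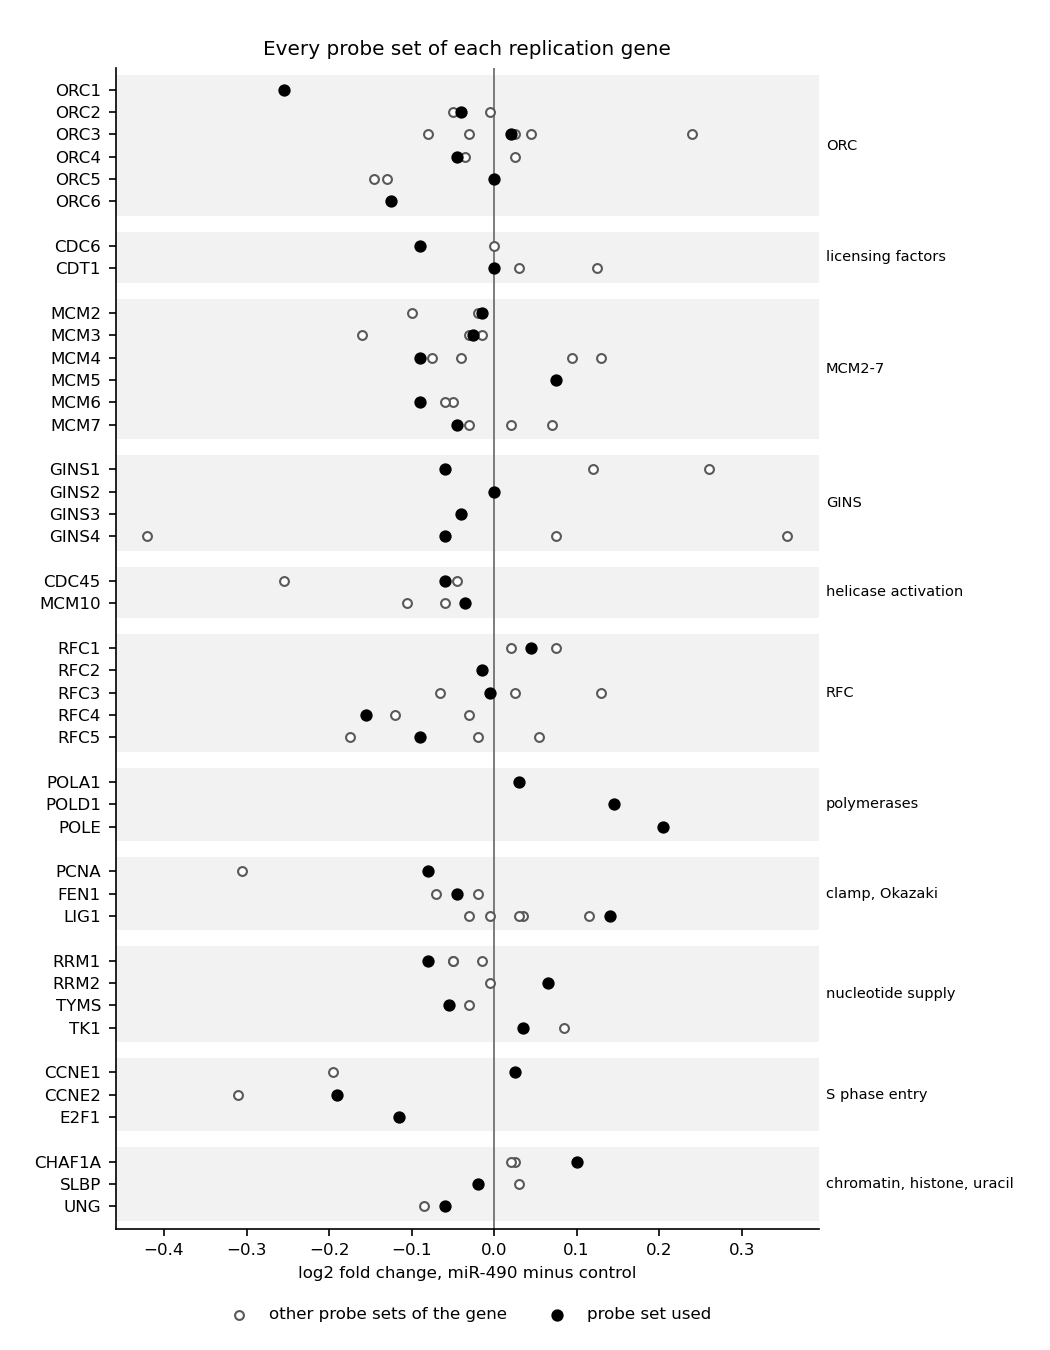
Each row is a gene and each circle a probe set, filled for the set used (the one with the highest mean) and open for the others; the x axis is the log2 fold change, miR-490 minus control. The widest scatter is in GINS4, from -0.42 to 0.355, all of it from dim sets, while 10 genes, ORC1, ORC6, POLA1, POLD1 and POLE among them, rest on 1 set each.

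Of 62 other replication genes, none passed over all genes (limma, smallest adjusted p 0.786), and at an unadjusted p under 0.05 there were 2 lower and 2 higher (6.45%, against 6.19% of all genes). That count of 4 was 0 when all probe sets of a gene were averaged and 0 with the replicate number as a block (limma). Of all 18132 genes, 959 and 892 were under 0.05 in these fits. In all, 34 had lower means and 27 higher, with a median log2 fold change of -0.015. On the lower side, CDC25A, the phosphatase that activates the S phase kinase, was at 6.28 and 6.22 in controls and at 6.10 and 5.84 with miR-490 (fold change -0.28). Over the mean of its probe sets CDC25A gave -0.107, and without miR-490 array 2 its fold change was -0.15. SAMHD1, which breaks down deoxynucleotides, was at 5.28 and 5.06 against 4.86 and 4.94 (-0.27), and MCMBP, which binds MCM subunits, at 8.88 and 8.82 against 8.75 and 8.69 (-0.13). The mean of probe sets gave -0.099 for SAMHD1, and the fold change without control array 1 was -0.16. On the probe sets used, both miR-490 arrays of these 3 genes, picked for the smallest p among the lower ones, were under both controls. Of the 62 genes 13 showed this (21.0%), against 16.1% of all genes.

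On the higher side, CDC7, the kinase that fires licensed origins, was at 4.67 and 4.86 in controls and at 5.11 and 4.95 with miR-490 (0.265). CHTF18, of an alternative PCNA loader, was at 6.11 and 6.10 against 6.38 and 6.24 (0.205), and POLE4, a small subunit of polymerase epsilon, at 8.68 and 8.74 against 8.82 and 8.83 (0.115). On the probe sets used, both miR-490 arrays of these genes, picked for the smallest p among the higher ones, were above both controls. Of the 62 genes 10 showed this (16.1%), against 16.5% of all genes. The mean of probe sets gave 0.083 for CDC7 and 0.112 for CHTF18. Without control array 1 the fold change of CDC7 was 0.17, and without miR-490 array 1 that of CHTF18 was 0.135. Of the 9 other polymerase subunits in this list 6 were lower and 3 higher, POLE4 among them, with a median of -0.015. The 7 genes listed with the S phase kinases and E2F factors had 2 lower, CDC25A among them, 4 higher and 1 equal. Their median was 0.035, and E2F2 had the highest fold change of the 62, at 0.295.

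Messages of mitosis, the later phase of the same cycle, gave other values on the same arrays. Of 25 mitosis genes, 23 lay higher with miR-490 at a median of 0.105, where the 41 replication genes had 11 higher and a median of -0.04, and 50.1% of all genes were higher. Without control array 1 the medians were 0.13 for the mitosis genes and -0.01 for the replication genes, and without control array 2 they were 0.065 and -0.06. Control array 1 was above control array 2 in 14 of the 25 (56.0%) and in 24 of the 41 (58.5%). The share was 38.8% over all genes and 41.2% among those above the median level. No gene of either list passed over all genes, and the difference between the lists was not tested. Both lists were chosen with earlier results of these data known, so the contrast is a description and not an independent finding.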

How the data were processed

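PrimeView arrays of 4 samples, grouped and numbered by their titles, were analysed. The authors deposited log2 values per probe set from RMA, per the submitters' processing notes, with software and version not given in the sources used here. RMA makes arrays alike, so a shift of most transcripts cannot be seen. Of 49293 probe sets, 44988 have 1 symbol, 1832 several and 2473 none in the platform annotation; 44961 took current symbols from RefSeq. One probe set per gene (highest mean) left 18132 genes, fitted in R 4.3.3 with limma 3.58.1 (lmFit, eBayes; 2 residual and 2.45 prior degrees of freedom; no filter or block), two-sided, with Benjamini-Hochberg adjustment over all genes. The fit was tested on simulated data. Values on all arrays were given for the 2 genes with the smallest p and the brightest in each complex, any with an unadjusted p under 0.05, and ORC1, CCNE2, CDC6 and E2F1; of other replication genes, for the 3 higher and 3 lower with the smallest p. Members and lists were chosen with earlier results of these data known. The number of arrays limits precision (median SE 0.0647 for the members). Alternatives were quantile normalisation, median centring, the mean of probe sets, genes above the median level, an intensity trend with robust prior, each array left out, all probe sets, and the replicate number as a block. Scan dates were not used here. Figures used matplotlib 3.10.9.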

Additional observations from a re-analysis of the deposited data

How the results depend on the processing

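In every alternative that kept all 4 arrays, 0 replication genes, 0 other replication genes and 0 genes in all passed the adjusted threshold (limma). The fit of genes above the median level held 35 of the 41, without ORC1, and 2 of the 35 had an unadjusted p under 0.05 (limma). In the other fits, between 2 and 4 of the 41 genes had an unadjusted p under 0.05 (limma). Of all 18132 genes 892 to 1126 did, and of the 9064 above the median level 641. Of the 110 probe sets 5 did, against 2336 of all 44988 with 1 symbol. With each array dropped in turn, where the spread of the remaining single array is taken from the other group, the count of lower means ran from 22 to 28 and the median of the 41 from -0.06 to -0.01. The medians ran from -0.0575 to -0.035 for ORC, -0.11 to 0.02 for the licensing factors, -0.08 to -0.01 for the MCM ring, -0.0725 to -0.01 for GINS, -0.1225 to 0.0275 for CDC45 and MCM10, -0.025 to 0.015 for RFC, 0.08 to 0.21 for the polymerases, -0.1 to 0.01 for PCNA, FEN1 and LIG1, -0.0325 to 0.04 for nucleotide supply, -0.19 to -0.04 for S phase entry and -0.085 to 0.045 for CHAF1A, SLBP and UNG. Median centring, which shifts every gene by the same amount, moved ORC to -0.0525 and ORC1 from -0.255 to -0.265. The mean of probe sets, which takes in the sets not used above, moved ORC to -0.0617 and GINS to -0.0062. Among those sets, ORC5 had -0.145 and -0.13, and GINS1 had 0.12 and 0.26. The mean of probe sets also put the licensing factors at 0.0033 and CHAF1A, SLBP and UNG at 0.005, on the other side of 0. Quantile normalisation did so for nucleotide supply (0.0034) and for CHAF1A, SLBP and UNG (0.0012). Of the 41 genes, 24 had lower means with the mean of probe sets and 30 with median centring. Same-numbered arrays did not deviate together (correlation -0.0264 across genes). With the replicate number as a block 0 replication genes passed, so no call changed, and the median was -0.04. Of the 41, 2 had an unadjusted p under 0.05 in that fit (limma), against 892 of all 18132 genes. Of 462 alternatives of 47 single genes, 49 in 22 genes had the other sign or a 0 in one fit. Of these 49, 33 left out an array. The block, trend and above-median fits use the same array values and cannot change a fold change. Leaving out an array cannot change the sign of a gene whose groups do not overlap. ORC1, CCNE2, POLE and POLD1 are such genes. They are among the 19 of the 41 genes that kept their sign in every alternative, so this says little about their stability. The medians of the mitosis genes with an array left out were computed after seeing the data.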
